A study of Arabidopsis thaliana with 18 samples.

Results

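The stored transcripts of mature dry seeds of Arabidopsis thaliana Col-0 were described from 3 RNA-seq libraries, out of 18 in the series. The 3 libraries are all the Col-0 libraries of the mature stage. Each came from at least 100 entire seeds of wild-type plants kept at 23 °C after flowering, the control temperature. The other 15 libraries, from 2 germination stages of Col-0 and 3 stages of the mutant ros1-4, were not used, so no groups are compared and every value below is a description with no test.

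A maturing seed fills with storage proteins and oil, then dries, and the mRNA present at that point is kept in the dry seed until water is taken up. The B3-domain factors LEC2, FUS3 and ABI3 and the bZIP factor ABI5 drive the maturation genes in Arabidopsis, partly in response to the hormone abscisic acid (ABA). The B3 domain binds the RY element, whose core reads CATGCA. The bZIP factors bind ABA response elements (ABREs) and G-boxes, which share the core ACGT. The entire seed contains the embryo, a single layer of endosperm and a dead seed coat, and in such bulk samples fewer cells of a type and less RNA per cell cannot be told apart.

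The 3 libraries held 18737837, 18793212 and 19143217 counts over 48268 transcripts of 27587 genes. Counts were divided by the effective length of each transcript, scaled to transcripts in 1000000 (TPM) and summed to genes. Between 18998 and 19133 genes had a count above 0 in a library, and between 16991 and 17062 had more than 3 counts. A count of 3, taken as the detection floor per library, equals 0.157 to 0.160 counts in 1000000 (CPM). For a transcript of the median effective length of 1215 bases it equals 0.130 to 0.132 TPM. Across the 27587 genes the Pearson correlation of log2(TPM + 1) between libraries was 0.996 for each of the 3 pairs, where genes are not independent replicates. The libraries were not copies of one another: the chi-square statistic of their gene counts was 4.43 to 7.81 per degree of freedom.

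The labelled tissue was checked against markers. The embryo markers CRA1, SESA3 and OLEO1 were among the 7 highest genes of the table, as given below. Of the 3 endosperm markers, EPR1, which encodes an extensin-like wall protein of the endosperm, was at 5545, 6582 and 8339 TPM, while ALE1 and RGE1, which act in the endosperm of the developing seed, had at most 1 count in any library. None of the 5 seed coat markers reached 1 TPM. The highest of them was TT4, the chalcone synthase of flavonoid synthesis, at 0.841, 0.478 and 0.760 TPM, and 3 of the 5 were at or under 3 counts in every library. Leaf markers were low: RBCS1A, a small subunit of Rubisco, was at 38.3, 30.4 and 47.7 TPM, and the other 5 were under 10 TPM.

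The stored mRNA was concentrated in few genes. The 10 highest genes held 33.2% ± 0.287 (SD, n = 3) of the TPM of a library, the 100 highest 58.4% ± 0.292 and the 1000 highest 77.5% ± 0.282. It took 45, 43 and 45 genes to reach 50% of the total in replicates 1, 2 and 3. For 90% of the total 3658, 3593 and 3679 genes were needed. At the other end, the 22587 genes ranked below 5000 held 6.93% ± 0.0837 together. On average 14420 ± 32.3 genes were at or above 1 TPM, 7671 ± 53.1 at or above 10 TPM, 877 ± 10.8 at or above 100 TPM and 88.7 ± 2.52 at or above 1000 TPM. These counts varied little between the 3 libraries.

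**Figure D1:**
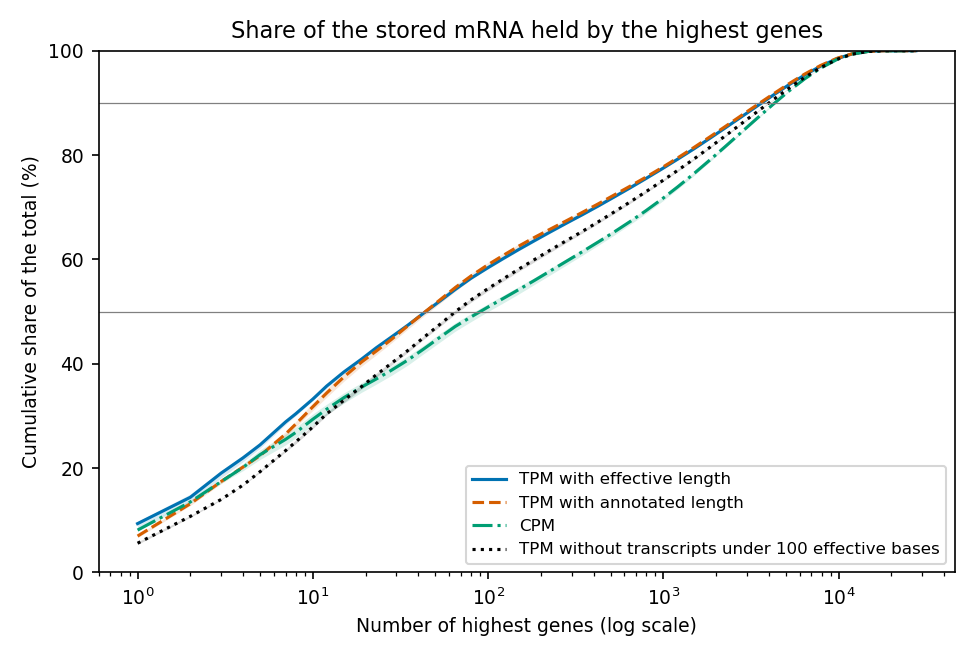
Cumulative share of the library total (%, y axis) held by the highest genes (number of genes, log x axis), as the mean of 3 libraries with the range as a band, for 4 ways of scaling. The TPM curves with effective and with annotated length both cross 50% near 45 genes, and the CPM curve crosses it near 91.

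The first rank was held by a gene whose level rested on its length. AT2G01021, an uncharacterized protein gene at chr2:6571-6672 on the plus strand (TAIR10.1, as are all coordinates here), was at 97465, 97834 and 85480 TPM, or 9.36% of the total. It had only 3678, 3707 and 3187 counts, 0.0187% of all counts. Its transcript is 102 bases long and the table gives it an effective length of 2 bases. By annotated length it was at 2507 ± 222 TPM (n = 3) and ranked 47, and by CPM it ranked 494. Its sequence is shown because the highest value of the table depends on it, with no part in capitals:
AT2G01021: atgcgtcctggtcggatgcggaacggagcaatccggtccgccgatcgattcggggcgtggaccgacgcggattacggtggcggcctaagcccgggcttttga
The same 102 bases occur at 2 places in the genome, chr2:6571-6672 and chr3:14200542-14200643. At both, the sequence starts 625 bases after the end of an annotated ribosomal RNA gene of 164 bases, AT2G01020 and AT3G41979. In the ribosomal DNA repeat the large-subunit rRNA follows this small rRNA. Whether the counts come from ribosomal RNA was not tested. Leaving out all 637 transcripts with an effective length under 100 bases, which held 0.0256% to 0.0309% of the counts and 9.01% to 10.3% of the TPM, brought the share of the 10 highest genes to 27.9% ± 0.306 and the genes needed for 50% to 65.7 ± 2.08.

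Below AT2G01021, the list of the 30 highest genes was made of seed reserves and of desiccation proteins. Of the 30, 24 belonged to 6 lists: storage globulins, 2S albumins, oil body proteins, late embryogenesis abundant (LEA) proteins, small heat shock proteins, and a list of antioxidant, metallothionein, raffinose-sugar and vacuole genes. The 111 genes of these lists, out of 27587, held 33.7% ± 0.881 of the TPM and gave 47 of the 100 highest genes. The lists and members were chosen with earlier results of these data known, so these high ranks may be partly built in. The other 6 of the 30 were AT2G01021, the defensin LCR67, EPR1, the glyoxylate cycle enzyme ICL, AT1G54870, which encodes an NAD(P)-binding Rossmann-fold protein, and AT1G04560, which encodes a membrane protein of the AWPM-19 family.

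**Figure D2:**
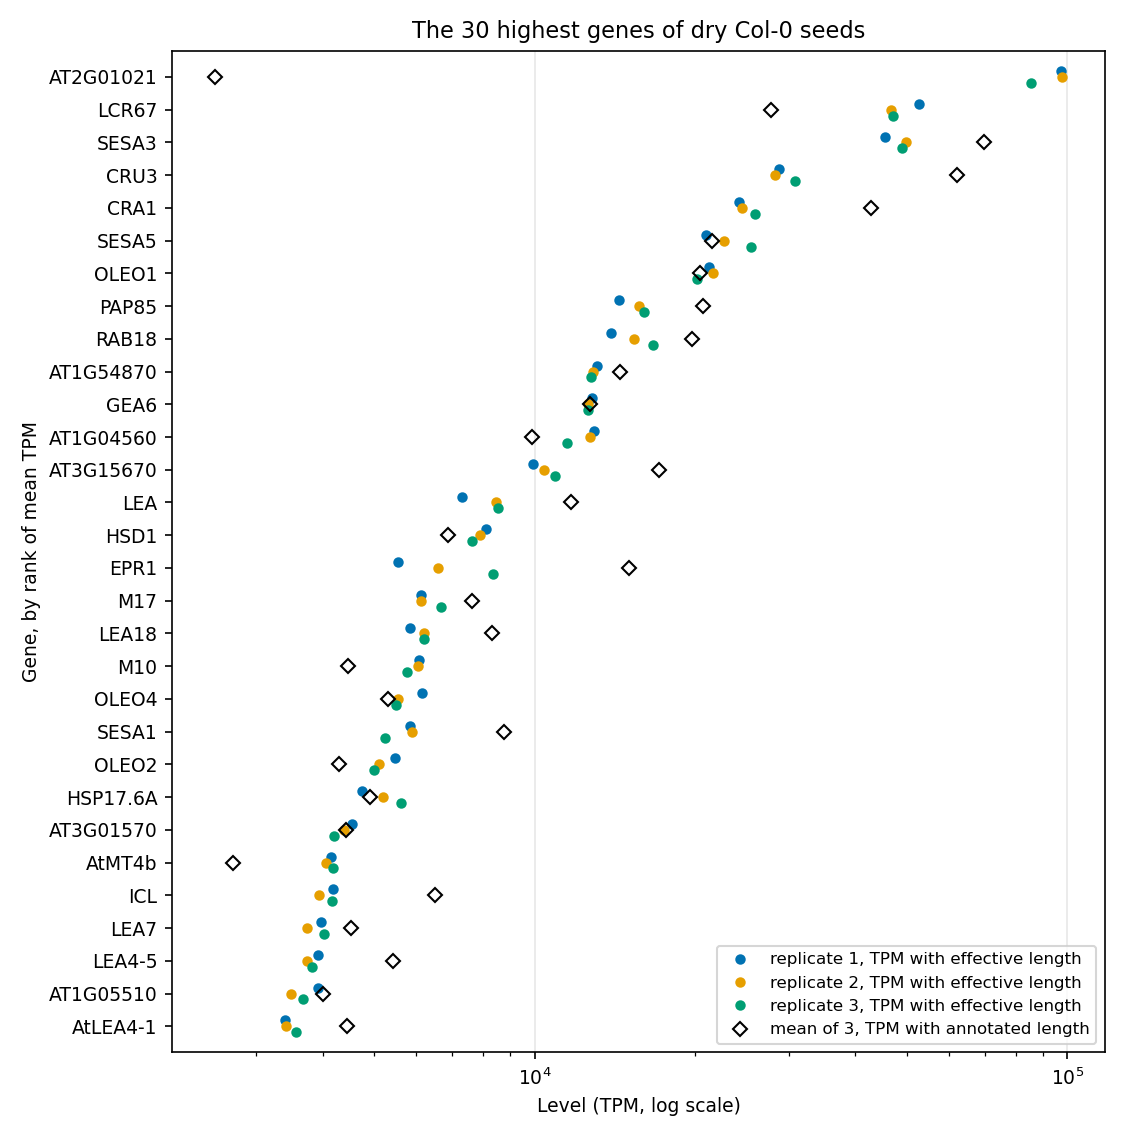
Levels of the 30 highest genes (TPM, log x axis; genes by rank on the y axis), with 1 filled point per library and an open diamond for the mean of the 3 libraries when annotated length is used. The 3 points of a gene lie close together, whereas AT2G01021, EPR1, CRU3, LCR67 and CRA1 move furthest between the 2 length scales.

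LCR67 (AT1G75830, chr1:28472357-28472898, plus strand), which encodes the plant defensin PDF1.1, a small antifungal peptide of seeds, was at 52620, 46629 and 47106 TPM. SESA3, a 2S albumin, was at 45433, 49826 and 48929 TPM. With effective length the values of the 2 genes overlap. With annotated length SESA3 was at 69684 ± 2962 TPM and ranked 1, and LCR67 was at 27720 ± 2189 TPM and ranked 4, so their order depended on the length used. The next was CRU3, a 12S globulin (cruciferin), at 28763, 28259 and 30808 TPM, which was above CRA1, another cruciferin, at 24135, 24509 and 25950 TPM, in every library. SESA5 was at 21012, 22664 and 25512 TPM and OLEO1, the main oleosin, at 21262, 21570 and 20180 TPM, again with overlapping values. PAP85, a vicilin-like globulin, at 14408, 15681 and 16070 TPM, and the dehydrin RAB18, at 13911, 15376 and 16668 TPM, overlapped too. AT1G54870, GEA6 (EM6, an LEA protein) and AT1G04560 were all between 11480 and 13115 TPM, the first of these at 13115, 12859 and 12776 TPM.

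The upstream sequences of the highest gene of 4 of the lists and of LCR67 are shown because the maturation factors named above act through such elements. Each run is the 250 bases before the annotated gene start, 5′ to 3′ on the strand of the gene, read from the RefSeq TAIR10.1 genome. Capitals mark CATGCA (RY core), ACGTGT (ABRE-like) and CACGTG (G-box) on either strand:
SESA3: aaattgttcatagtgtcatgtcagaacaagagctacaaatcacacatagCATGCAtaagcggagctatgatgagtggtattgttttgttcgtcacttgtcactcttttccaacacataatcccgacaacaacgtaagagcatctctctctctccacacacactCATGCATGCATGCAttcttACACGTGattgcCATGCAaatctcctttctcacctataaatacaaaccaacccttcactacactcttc
CRU3: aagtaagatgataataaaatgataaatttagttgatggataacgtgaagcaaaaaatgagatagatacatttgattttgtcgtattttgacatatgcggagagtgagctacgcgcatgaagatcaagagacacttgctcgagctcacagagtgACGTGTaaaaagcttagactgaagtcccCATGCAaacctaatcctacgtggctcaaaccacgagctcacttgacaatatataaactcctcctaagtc
OLEO1: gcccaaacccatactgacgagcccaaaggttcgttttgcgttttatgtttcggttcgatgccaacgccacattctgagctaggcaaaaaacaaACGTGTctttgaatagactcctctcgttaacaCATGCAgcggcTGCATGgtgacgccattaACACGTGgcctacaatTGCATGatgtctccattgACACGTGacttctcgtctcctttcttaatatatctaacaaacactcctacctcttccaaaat
RAB18: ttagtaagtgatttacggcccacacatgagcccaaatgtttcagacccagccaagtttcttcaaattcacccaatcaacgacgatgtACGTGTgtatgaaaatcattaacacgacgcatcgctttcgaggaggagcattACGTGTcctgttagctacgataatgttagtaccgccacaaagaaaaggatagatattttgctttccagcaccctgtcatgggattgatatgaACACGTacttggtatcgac
LCR67: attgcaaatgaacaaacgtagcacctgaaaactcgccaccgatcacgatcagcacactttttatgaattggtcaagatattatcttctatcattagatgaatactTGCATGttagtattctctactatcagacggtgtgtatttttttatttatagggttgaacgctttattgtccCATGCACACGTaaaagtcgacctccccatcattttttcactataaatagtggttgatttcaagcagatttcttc
The windows lie at chr4:13611546-13611795 (plus strand), chr4:14087306-14087555 (plus), chr4:12900180-12900429 (plus), chr5:26519448-26519697 (minus) and chr1:28472107-28472356 (plus). SESA3 had 7 matches of CATGCA, counting both strands, and 2 of the longer CATGCATG, which reads the same on both strands and so holds CATGCA on each. OLEO1 had 3 matches of CATGCA, 3 of ACGTGT and 2 of CACGTG. RAB18 had 3 of ACGTGT and none of CATGCA. In SESA3 and OLEO1 every G-box match overlaps a match of the ABRE-like motif, so the same letters are counted under both names.

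Such motifs were frequent before the highest genes. CATGCA stood in 37 of the 98 promoters found for the 100 highest genes (37.8%), against 2312 of all 27391 promoters (8.44%). ACGTGT stood in 54 of 98 (55.1%), against 10.5% of all promoters. CACGTG stood in 39 of 98 (39.8%) against 6.50%, and CATGCATG in 7 of 98 (7.14%) against 0.778%. A promoter with both CATGCA and ACGTGT was found for 23 of 98 (23.5%), against 287 of 27391 (1.05%). CATGCA was in 11.4% of the promoters ranked 101 to 500 and 5.15% of those ranked 501 to 1000, and ACGTGT in 23.6% and 14.8%. Further down, CATGCA was in 6.57% of those ranked 1001 to 5000 and in 10.2% of those ranked 14447 to 27587, and ACGTGT in 12.3% and 8.95%, so CATGCA did not fall steadily with rank. A match of 6 letters is a description, not a binding site, and the base composition of the windows differed, with a median GC content of 36.6% for the 100 highest genes and 31.2% for all.

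The motifs were also counted by list. The RY core, the ABRE-like motif and the G-box each stood in all 5 promoters of the 2S albumins. SESA1 to SESA4 lie together within 6955 bases, so their promoters may not be separate cases. CATGCA was in 12 of 13 oil body promoters and 6 of 8 storage globulin promoters, and ACGTGT was in 6 and 4 of these. In the LEA list the balance was the other way, with ACGTGT in 29 of 51 promoters (56.9%) and CATGCA in 9 (17.6%). Small heat shock promoters had ACGTGT in 2 of 17 and CATGCA in 4. The 331 ribosomal protein promoters were near the level of all genes or below it, with CATGCA in 4.83% and ACGTGT in 7.85%. The 63 promoters of photosynthesis genes, a class with little stored mRNA, held ACGTGT in 23.8% and CACGTG in 22.2%, above the shares over all promoters, and CATGCA in 9.52%.

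**Figure D3:**
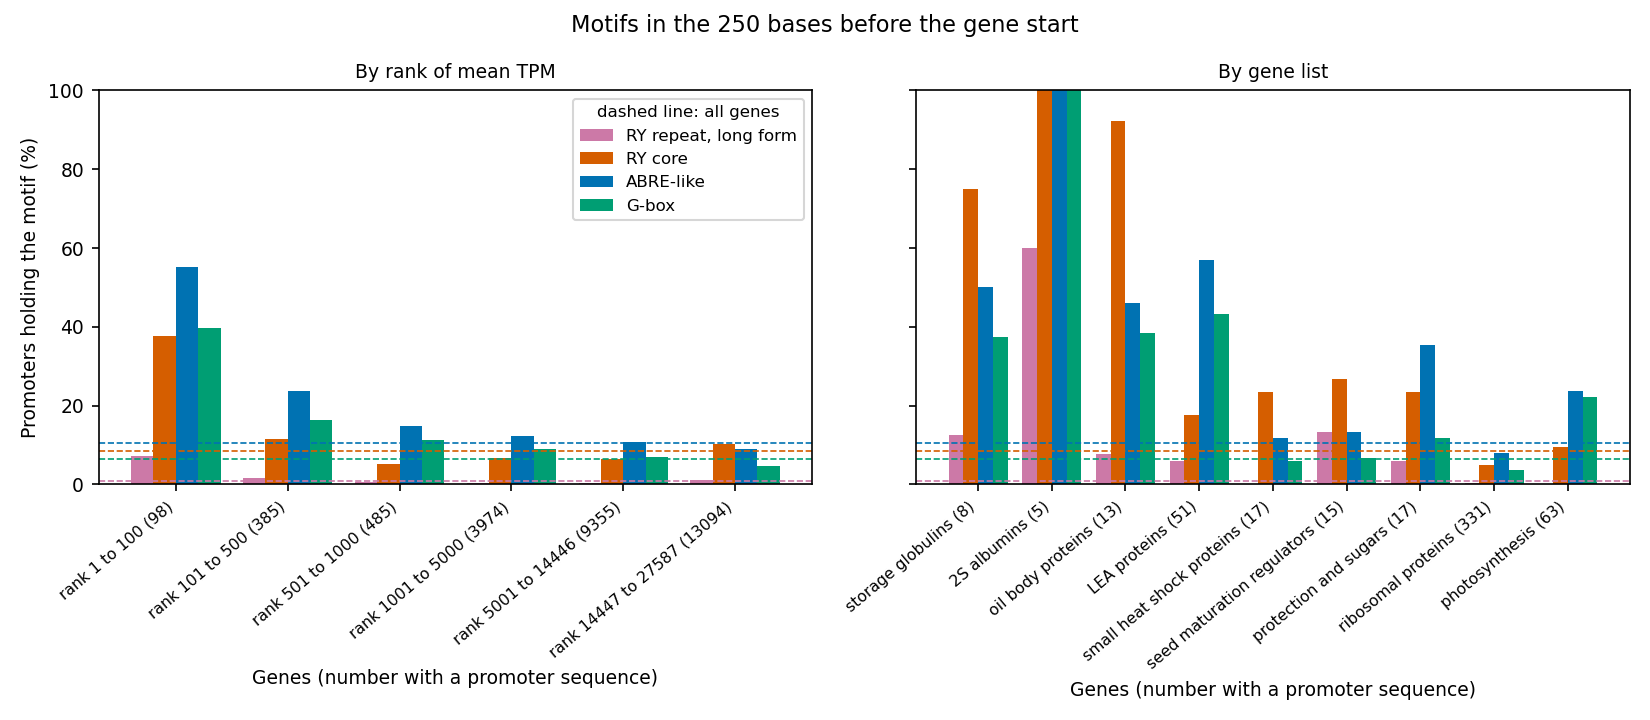
Share of promoters (%, y axis) that hold the 4 motifs in the 250 bases before the gene start, by rank of mean TPM (left) and by gene list (right), with the share over all 27391 promoters as dashed lines. The 100 highest genes stand at 37.8% for the RY core and 55.1% for the ABRE-like motif, and all 5 2S albumin promoters hold both.

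The coding sequences of the highest genes were short. The median coding length of the 98 protein-coding genes with an annotation among the 100 highest was 568.5 bases (quartiles 468 and 906), against 1047 bases over all genes (quartiles 600 and 1572) and 1161 bases over the genes at or above 1 TPM. Their main transcripts had a median of 2 exons, against 4 over all genes. Since TPM divides by length, a short gene needs fewer counts for a given TPM.

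Storage globulins, the 12S and 7S proteins that supply nitrogen to the seedling, held 7.38% ± 0.288 of the TPM with 8 genes, each with a mean at or above 100 TPM. CRU3, CRA1 and PAP85 gave most of it. CRU2, another cruciferin, was lower, at 2323, 2424 and 2351 TPM, and the cruciferin-like AT1G03890 was at 101, 116 and 91.0 TPM. The vicilin-like AT2G28490 was at 1331, 1381 and 1327 TPM, and AT2G18540 and AT4G36700, cupin genes, were between 214 and 239 TPM. The share of this list depended on the length used: it was 13.2% ± 0.325 with annotated length and 16.9% ± 0.341 by CPM. The table gives CRU3 an effective length of 2786 bases for a transcript of 1794 bases, and by annotated length CRU3 was at 62021 ± 2045 TPM, 2.12 times the value above. Effective length was above annotated length for 1144 of 48268 transcripts in all, and for the main transcript of 20 of the 100 highest genes.

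The 2S albumins, small sulfur-rich storage proteins, held 8.13% ± 0.387 with only 5 genes. SESA1 to SESA4 lie together within 6955 bases (chr4:13607329-13614283), yet their levels spanned 32.7-fold. SESA3 was highest, followed by SESA1 at 5831, 5881 and 5247 TPM, SESA2 at 3150, 3240 and 2784 TPM and SESA4 at 1432, 1526 and 1456 TPM. The ranges of these 4 do not overlap. SESA5 on chromosome 5 stood between SESA3 and SESA1. Of the 31-base stretches of SESA3, 9.08% also occur in another gene of the table, so part of its reads could be shared.

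Oil body proteins coat the droplets of stored oil. Their 13 genes held 5.03% ± 0.165, and 9 were at or above 100 TPM. Among the listed oleosins OLEO1 led, followed by OLEO4 at 6148, 5534 and 5484 TPM and OLEO2 at 5456, 5106 and 4988 TPM. AT3G01570 was next, at 4546, 4387 and 4201 TPM, and OLEO3 was at 80.0, 83.1 and 86.9 TPM. AT2G25890, annotated to the oleosin family but not in this list or share, was at 1522, 1600 and 1504 TPM. At least 1 of its transcripts has all its 31-base stretches in common with other genes. HSD1, a steroleosin, was at 8116, 7907 and 7630 TPM. A second annotated copy of HSD1, AT5G50700, was at 266, 326 and 238 TPM, and all 31-base stretches of the first occur elsewhere in the table, so the split between the copies is uncertain. Their summed levels were 8382, 8233 and 7868 TPM. The caleosins ATS1, at 629, 625 and 599.5 TPM, and ATPXG2, at 985, 915 and 954 TPM, were lower than the main oleosins, and RD20, a caleosin of stressed leaves, was at 2.45, 1.90 and 1.01 TPM.

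LEA proteins, which are mostly unfolded in water and protect dry cells, held 10.1% ± 0.353 with 51 genes, the largest share of any class by effective length, whereas storage globulins were above them with annotated length and by CPM. Of these 42 were at or above 1 TPM, 30 at or above 100 TPM and 19 at or above 1000 TPM, against 14446, 877 and 89 of the 27587 genes. The median LEA gene was at 447 TPM and the median over all genes at 1.39 TPM. RAB18 and GEA6 were followed by AT3G15670 at 9921, 10429 and 10928 TPM, the dehydrin LEA at 7308, 8461 and 8541 TPM, M17 at 6118, 6110 and 6682 TPM and LEA18 at 5832, 6192 and 6199 TPM. The 10 highest LEA genes held 75.6% of the class. M10, LEA7, LEA4-5 and AtLEA4-1 were between 3405 and 6059 TPM. EM1, the Em gene paired with GEA6, was at 1852, 2120 and 2199 TPM. The list does not hold every LEA gene: AT5G66780, annotated as an LEA protein but outside it, was at 1756, 1831 and 1921 TPM.

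The LEA family was not stored as a whole. COR15A and COR15B, LEA genes of cold-treated leaves, had 0 counts in every library, as did AT2G03740, AT2G33690, AT3G53770 and AT4G13230, and AT2G03850 had 1 count in 1 library. A count of 0 allows up to 0.160 CPM in a library. The dehydrins ERD10, at 0.387, 0.526 and 0.357 TPM, COR47, at 1.97, 1.65 and 2.20 TPM, and ERD14, at 4.97, 7.32 and 5.58 TPM, were under 10 TPM in each library. Their relatives XERO1, at 2014, 2225 and 2248 TPM, and LTI30, at 1595, 1679 and 1602 TPM, were higher in every library.

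Small heat shock proteins, chaperones that also form during seed maturation, held 0.763% ± 0.0626 with 17 genes. HSP17.6A, of class II, gave 67.9% of it, at 4733, 5187 and 5622 TPM, followed by HSP17.4 at 1647, 1806 and 1935 TPM. HSP17.6II, also of class II, was lower, at 19.3, 19.1 and 25.0 TPM. AT5G47600 had 0 counts and AT4G21870 at most 3. The heat-induced HSP18.2 was at 1.65, 1.31 and 2.47 TPM and the plastid HSP21 at 0.782, 1.28 and 0.576 TPM.

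The list of protective and vacuolar genes held 2.32% ± 0.0107 with 17 genes, 11 of them at or above 100 TPM. The seed metallothioneins AtMT4b, at 4153, 4066 and 4184 TPM, and AtMT4a, at 2951, 3197 and 3101 TPM, bind zinc. PER1, a 1-cysteine peroxiredoxin of dry embryos, was at 3390, 3442 and 3251 TPM. The aquaporins of the storage vacuole BETA-TIP (TIP3;2), at 3199, 3143 and 3104 TPM, and TIP3;1, at 3034, 2895 and 2880 TPM, did not overlap in the 3 libraries, with 22.6% of the 31-base stretches of TIP3;1 shared with other genes. Catalases differed, with CAT3 at 2287, 2305 and 2548 TPM, CAT2 at 1307, 1269 and 1427 TPM and CAT1 at 65.3, 63.5 and 62.0 TPM. The galactinol synthases GolS2, at 498, 485 and 481 TPM, and GolS1, at 325, 351 and 345 TPM, which start the synthesis of raffinose sugars, were stored, and the raffinose synthase SIP1 (RS5) was at 0.405, 0.303 and 0.144 TPM. Among the vacuolar processing enzymes, BETA-VPE, which cuts the storage proteins, was at 656, 646 and 638 TPM and the others were under 24 TPM.

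**Figure D4:**
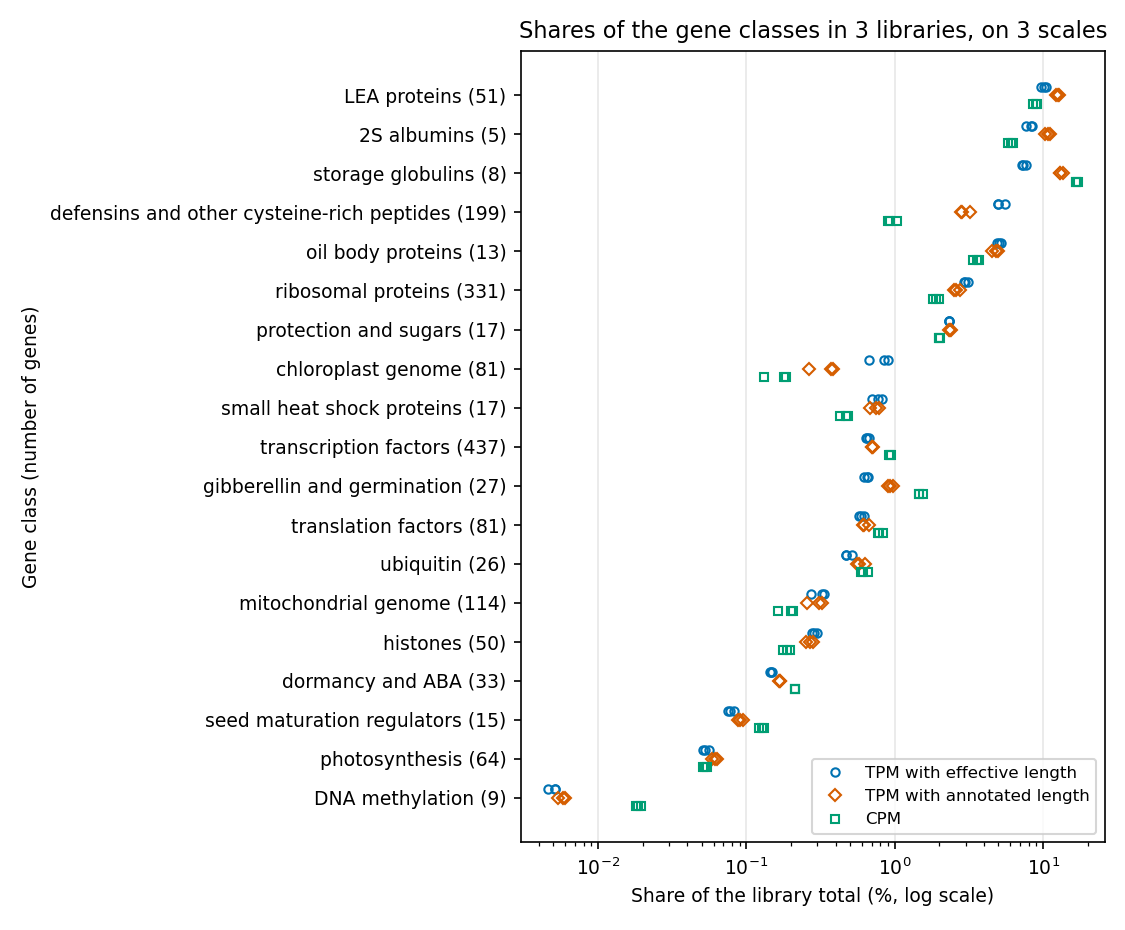
Share of the library total (%, log x axis) of each gene class (y axis, with its number of genes) in the 3 libraries on 3 scales. LEA proteins, 2S albumins and storage globulins lead on each scale, with storage globulins at 7.38% by effective length and 16.9% by CPM.

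Classes of general cell function were present at moderate levels. Genes for ribosomal proteins, read from their product names, numbered 331, of which 301 (90.9%, all genes 52.4%) were at or above 1 TPM. They held 2.99% ± 0.0935, with a median of 43.6 TPM and none at or above 1000 TPM. The 81 translation factor genes held 0.595% ± 0.0204. The highest ubiquitin gene, UBQ3, was at 2111, 2006 and 1952 TPM. Defensins and other cysteine-rich peptides held 5.14% ± 0.340 with 199 genes, but LCR67 alone was 94.8% of this, and 181 of the 199 were at or under 3 counts in every library. PDF2.1, another defensin, was at 1796, 1832 and 1712 TPM. Nuclear photosynthesis genes held 0.0529% ± 0.00247 with 64 genes, led by LHCB4.1, a light-harvesting protein of photosystem II, at 74.6, 61.3 and 77.7 TPM, and none was at or above 100 TPM.

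Genes whose product names a transcription factor held 0.650% ± 0.0171 of the TPM. Of these 437 genes, 221 (50.6%) were at or above 1 TPM, against 52.4% of all genes, and 8 were at or above 100 TPM. The highest was AT1G21000, a PLATZ family gene, at 883, 921 and 896 TPM. It was followed by the GATA-like AT1G02700 at 676, 715 and 735 TPM, AT1G76590, also PLATZ, at 503, 486 and 508 TPM, and ABI5 at 227, 227 and 255 TPM. HSFA9, the heat shock factor of seeds, was at 147, 154 and 178 TPM and TGA1, a bZIP factor, at 112, 109 and 111 TPM. The myb-like AT1G35516, EEL, ABI3 and AT3G14880 completed the 10 highest of this class, with means from 74.5 to 109 TPM. Factors with other product names, such as AIL5 below, are outside this class and its ranking.

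Among the 15 regulators of seed maturation, 12 (80%) were at or above 1 TPM, against 52.4% of all genes, and 2 had no count. ABI5 had a mean of 237 ± 16.1 TPM, HSFA9 159 ± 16.4 TPM, EEL, a bZIP factor, 102 ± 5.60 TPM and ABI3 88.3 ± 3.12 TPM. AIL5 (PLETHORA5) was at 76.4, 73.7 and 81.1 TPM. FUS3 was at 9.40, 12.4 and 13.7 TPM and ABI4, an AP2-type factor of ABA signalling, at 10.5, 12.8 and 11.9 TPM. WRI1, which turns on oil synthesis genes, was at 1.03, 1.36 and 1.42 TPM and DPBF2 (bZIP67) at 0.897, 0.707 and 0.643 TPM. LEC1 and LEC2, which act early in embryo development, had 0 counts in every library. The 15 genes had a median of 19.8 TPM and held 0.0786% ± 0.00393 of the total.

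Genes of dormancy and ABA signalling numbered 33, and 30 (90.9%) were at or above 1 TPM, against 52.4% of all genes. SOM, a zinc finger repressor of light-dependent germination, was at 416, 414 and 447 TPM, and AHG1, a protein phosphatase of the PP2C family that acts in seeds, at 309, 312 and 332 TPM. The next was AT4G11040 (RDO5), a PP2C-like dormancy gene, at 101, 95.2 and 91.5 TPM. Other PP2C genes of ABA signalling were lower, with ABI2 at 20.6, 19.7 and 18.3 TPM, HAB1 at 19.6, 19.5 and 19.6 TPM and ABI1 at 5.95, 6.42 and 5.80 TPM. Of the SnRK2 kinases that these phosphatases inhibit, SNRK2.3 was at 85.3, 84.9 and 84.7 TPM and SNRK2.2 at 53.7, 50.5 and 49.3 TPM, and OST1, the kinase of stomata, at 1.18, 1.33 and 1.08 TPM. DOG1, a main regulator of dormancy, was at 31.1, 29.2 and 27.1 TPM. E12A11 (MFT), a seed protein of the PEBP family, was at 54.1, 57.0 and 61.4 TPM, with 40.9% of its 31-base stretches shared with other genes.

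Among the enzymes that break down ABA, CYP707A2, known from seeds, was at 30.8, 32.7 and 30.6 TPM, and CYP707A1, CYP707A3 and CYP707A4 were each under 2 TPM. Of the enzymes of ABA synthesis, NCED9 was at 7.31, 6.79 and 6.31 TPM and NCED6 at 2.03, 1.74 and 1.76 TPM. Both were under 10 TPM but above the median of all genes, 1.39 TPM, and other enzymes of this synthesis are not given here. The light-labile repressor PIL5 (PIF1) was at 41.7, 45.4 and 46.7 TPM. HUB1 and HUB2, which ubiquitinate histone H2B and affect dormancy, were at 13.5, 14.2 and 15.6 TPM and 28.8, 24.5 and 26.8 TPM.

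Of the 27 gibberellin and germination genes, 17 (63.0%) were at or above 1 TPM, against 52.4% of all genes. At or above 100 TPM were 3 of the 27, against 877 of all 27587 genes. ICL and MLS, the 2 enzymes specific to the glyoxylate cycle that turns oil into sugar precursors, were at 4178, 3942 and 4173 TPM and 1646, 1503 and 1507 TPM. PCK1, which acts after them in gluconeogenesis, was at 477, 451 and 473 TPM, and SDP1, the main oil lipase, at 60.0, 53.4 and 54.2 TPM. All 4 enzymes were above the median of all genes, 1.39 TPM. Of the genes for the last step of gibberellin synthesis, only GA3OX1 and GA3OX2 are given here, and both were near the floor. GA3OX1 had 1 count in 1 library and GA3OX2 was at 0.0976, 0.0972 and 0.395 TPM, while GA20OX3 was at 16.4, 17.3 and 14.4 TPM. The receptor GID1A was at 92.7, 91.2 and 86.9 TPM, GID1C at 28.7, 27.9 and 24.8 TPM and GID1B at 0.303, 0.0670 and 0.238 TPM. Of the DELLA repressors, RGL3 was at 46.2, 47.0 and 46.2 TPM, GAI at 32.0, 29.3 and 29.6 TPM and RGL2, the DELLA known from germination, at 24.5, 21.9 and 21.2 TPM, whereas RGL1 was at 0.0634, 0.0316 and 0.193 TPM. The expansins EXPA1, EXPA2 and EXPA8, which loosen cell walls, were each under 10 TPM. The cell cycle genes CYCB1;1, CYCD1;1 and CDKB1;1 were each under 1 TPM.

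Of the 9 genes that write, keep or erase DNA methylation, 4 (44.4%, all genes 52.4%) were at or above 1 TPM and none at or above 100 TPM. DML1, which is ROS1, the demethylase mutated in the other genotype of the series, was the highest of the 9, at 31.1, 29.5 and 31.1 TPM from 2578, 2455 and 2547 counts. The de novo methyltransferase DRM2 was at 11.4, 8.69 and 12.0 TPM, the CG maintenance enzyme MET1 at 4.69, 3.75 and 4.03 TPM and the demethylase DME at 2.59, 2.51 and 2.41 TPM. CMT3, CHR1 (DDM1), DML2 and CMT2 were each under 1 TPM, and DML3 had 0 counts. The 9 genes had a median of 0.624 TPM, against 1.39 TPM over all genes.

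**Figure D5:**
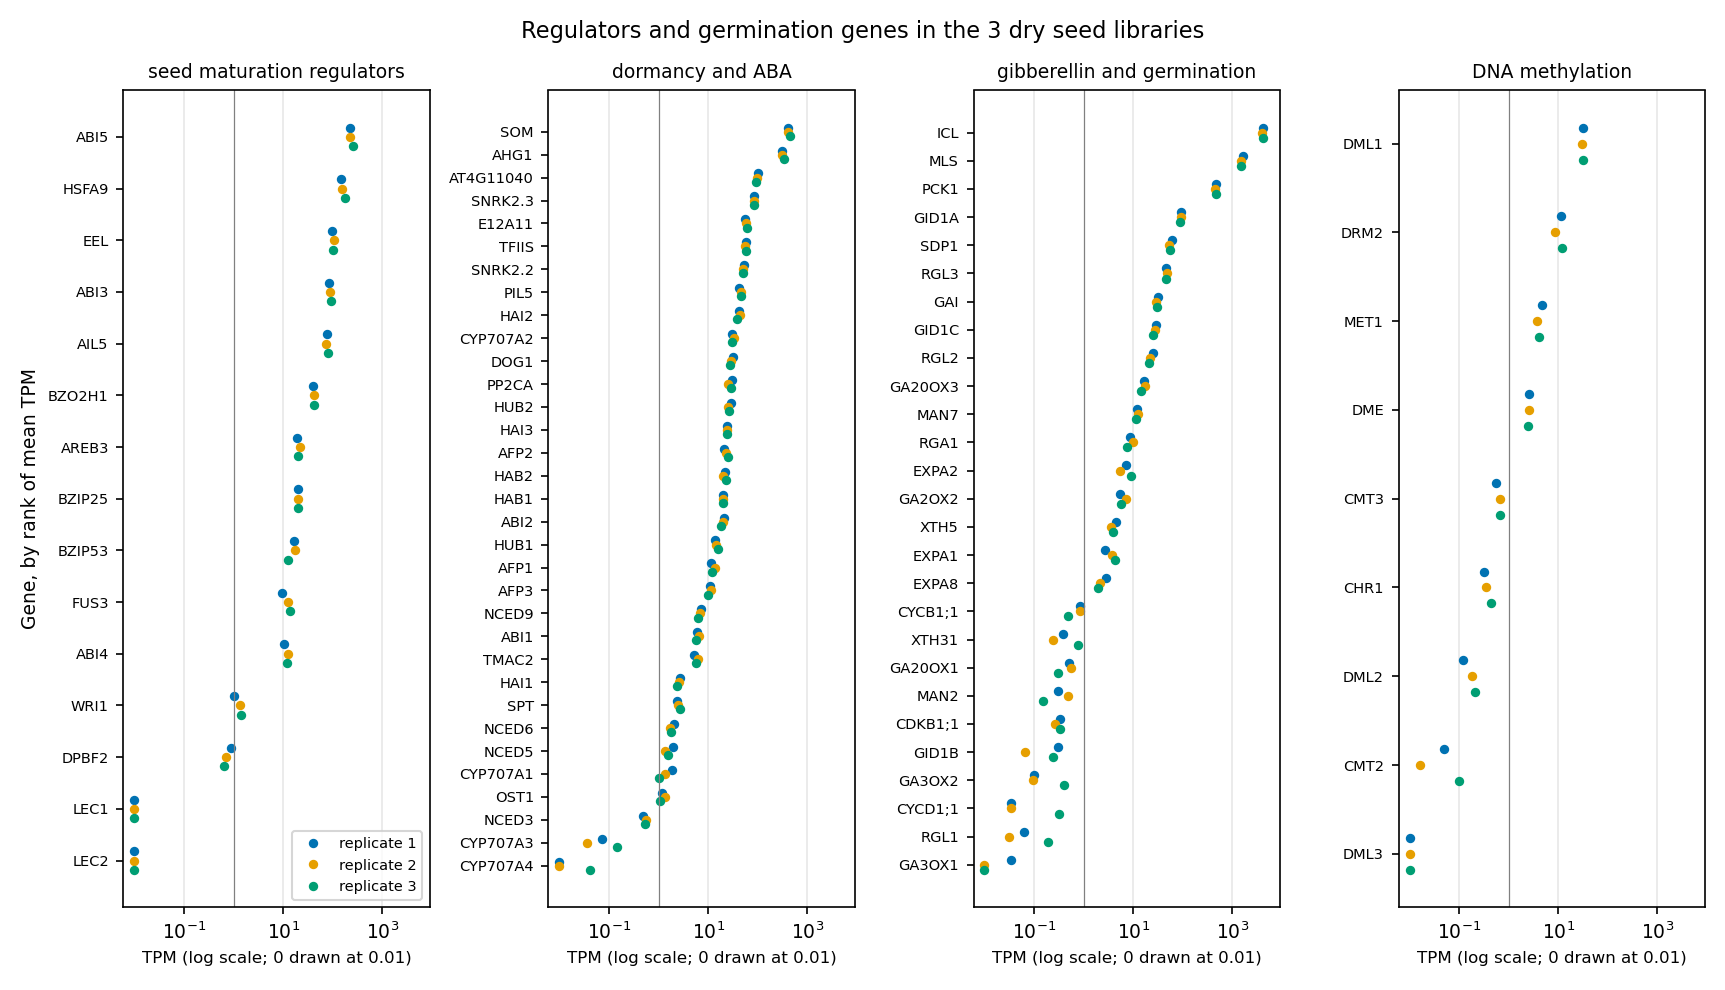
Levels (TPM, log x axis, with 0 drawn at 0.01 and a line at 1 TPM) of the genes of 4 lists in the 3 libraries, ordered by mean. ABI5, SOM and ICL lead their lists, LEC1 and LEC2 are at 0 in every library, and DML1 (ROS1) is the highest gene of the methylation list.

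Most genes with several annotated transcripts stored mainly one of them. Of the 7701 genes with a mean at or above 10 TPM, 3727 have more than 1 transcript in the table, and their main transcript held a median of 88.5% of the gene (quartiles 66.6% and 98.3%). The main transcript was not the same in the 3 libraries for 396 of these genes. DOG1 was among the mixed ones: AT5G45830.6 was at 16.3, 19.7 and 20.5 TPM, AT5G45830.3 at 9.08, 4.29 and 3.92 TPM, and AT5G45830.2 at 5.33, 5.12 and 1.25 TPM, so that the first of these led in each library. For ABI5, AT2G36270.1 held 79.0% of the gene and AT2G36270.2 19.2%. With reads of 50 bases the assignment to transcripts is an estimate.

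The 3 libraries differed little for the abundant genes. The median coefficient of variation (CV) was 4.70% over the 877 genes with a mean at or above 100 TPM and 5.94% over the 7701 genes at or above 10 TPM. In the first set 15 genes had a CV over 20%. Of these, 13 were chloroplast genes, known only by their identifiers, and 12 of the 13 were lowest in replicate 3. ATCG00810 was at 328, 317 and 185 TPM and ATCG00800 at 346, 389 and 222 TPM. ATCG00065 and ATCG00760, both among the 5 largest CVs, had at most 20 and 115 counts. The chloroplast genome held 0.842%, 0.905% and 0.670% of the TPM in replicates 1, 2 and 3, and the mitochondrial genome 0.333%, 0.323% and 0.272%. The mean chloroplast share of 0.806% was 0.435% without transcripts under 100 effective bases, 0.338% with annotated length and 0.165% by CPM. The 2 nuclear genes with a CV over 20% were EPR1, lowest in replicate 1, and AGP10, an arabinogalactan protein gene named here after its values were seen, at 375, 627 and 582 TPM. Of the 36 LEA genes at or above 10 TPM, 23 were highest in replicate 3 (63.9%), as were 8 of 11 small heat shock genes (72.7%), against 39.7% of all 7701 genes at this level. Replicate 1 was the highest for 8 of 12 oil body genes, 7 of 14 protective genes and 136 of 267 ribosomal protein genes (50.9%), against 38.6% of the 7701 genes. Whether these differences reflect the seed lots or the libraries was not tested.

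Among the highest genes with no described product, AT2G01021 was followed by AT1G07985, at 2821, 3140 and 3082 TPM, with a coding length of 435 bases. AT2G16586 was at 2568, 2302 and 1843 TPM, with 17.01% of its 31-base stretches shared with other genes, and AT4G27530 at 1118, 1220 and 1218 TPM. AT5G21020, whose coding sequence is only 129 bases, was at 1139, 1141 and 1157 TPM.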

How the data were processed

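RNA of entire mature seeds was enriched for mRNA, and single-end reads of 50 bases were sequenced. The authors deposited estimated counts per transcript, made with Salmon (submitters' processing notes) against the Araport11 transcriptome, and, per their methods, kept only transcripts above 0 TPM in some stage and with a minimum relative spread of log2 TPM across stages. Steadily expressed genes may therefore be missing, and every share or median over all genes refers to the 27587 genes of the table. The deposited table also gives transcript length and 1 effective length for all 18 libraries. Which library this effective length comes from is not given in the sources used here, and it exceeds the annotated length for 1144 of 48268 transcripts. The estimated counts were used as deposited, without rounding.

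For each library, counts were divided by effective length, scaled to 1000000 and summed to genes by removing the transcript suffix. Products, coordinates and upstream sequences came from RefSeq TAIR10.1, in which 27392 of 27587 genes were found. The other 195 genes, of the organelles, were named by identifier only. Identical stretches of 31 bases between genes marked shared sequence. Total counts per library were 18737837 to 19143217, so that 3 counts, the floor used, equal 0.157 to 0.160 CPM. Floors cover counting error only. Values are means ± SD over 3 libraries, with no test. Nothing in the labels says whether the replicates came from separate plants.

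Named genes were the 30 highest by mean TPM, up to 10 highest members of each list and all members at or under 3 counts in every library. The 10 highest transcription factors by product name, the 5 largest CVs among genes at or above 100 TPM and the 5 highest uncharacterized genes were added. UBQ3, LHCB4.1, PDF2.1, AT2G25890, AT5G66780 and further list members outside these ranks were named after their values were seen. The gene lists and members were chosen with earlier results of these data known. Annotated length, CPM, totals without organelle genes or without the 10 highest genes, a filter under 5 counts and leaving out each replicate were tried as alternatives. Python 3.11.15, numpy 2.4.6, pandas 2.3.3, scipy 1.17.1 and matplotlib 3.10.9 were used, and the arithmetic of the TPM computation was tested on simulated data. The simulated counts were made with the same effective lengths, so they could not check those lengths.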

Additional observations from a re-analysis of the deposited data

How the results depend on the processing

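Of 172 shares and medians recomputed under an alternative, 83 moved by at most 1 SD over the 3 libraries and 89 moved further. For the motif shares this SD was 0 or nearly 0, so any change counted as moving further. Of 24 recomputed numbers of genes, 23 stayed within 1.5 times the value given, although several moved by more than 1 SD. Leaving out each replicate in turn moved none of these values by more than 1 SD. A mean over 3 libraries cannot move that far when 1 is left out, so these settings could not show instability. The split into 83 and 89 is therefore no measure of robustness. Setting transcripts under 5 counts to 0 took the genes at or above 1 TPM from 14420 to 14357, against an SD of 32.3. Settings that change the length or the total move shares by construction. The settings without transcripts under 100 effective bases, and annotated length for the gene classes, were chosen after seeing the data. No paired analysis was possible because the results come from no test.

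The share of the 10 highest genes (33.2%) was 31.8% with annotated length, 29.4% by CPM, 33.6% without organelle genes and 27.9% without short transcripts, and the genes needed for 50% (44.3) were 90.7 by CPM and 65.7 without short transcripts. With annotated length the share was 13.2% for storage globulins, 10.7% for 2S albumins, 4.77% for oil body proteins, 12.6% for LEA proteins, 2.35% for protective genes, 2.62% for ribosomal proteins and 0.338% for the chloroplast genome. By CPM these shares were 16.9%, 6.03%, 3.54%, 8.87%, 2.00%, 1.90% and 0.165%, and small heat shock proteins held 0.460%. Without short transcripts they were 8.19%, 9.02%, 5.58%, 11.2%, 2.57%, 3.30% and 0.435%, and small heat shock proteins held 0.847%. Without the 10 highest genes they were 0.639%, 1.53%, 4.38%, 12.8%, 3.47%, 4.48% and 1.21%, and small heat shock proteins held 1.14%. Without organelle genes the protective list held 2.34%. Among the other classes 8 values moved over 1.5-fold. The furthest were defensins at 0.397% without the 10 highest genes and 0.951% by CPM, against 5.14%. Next were 2 lists by CPM: DNA methylation at 0.0187% against 0.00492%, and gibberellin and germination at 1.49% against 0.645%. Defensins were at 2.94% with annotated length. The remaining values were those of seed maturation regulators, histones and the mitochondrial genome by CPM.

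The main transcript held a median of 94.8% in genes at or above 100 TPM. In the 50 highest and the 500 highest genes, CATGCA stood in 50% and 16.8% of promoters, ACGTGT in 56% and 30.02%, CACGTG in 40% and 21.1%, and CATGCATG in 10% and 2.69%. Their median coding lengths were 588 and 699 bases.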
